A study of Mus musculus with 2 samples.

Results

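The tiled segment of chromosome 18 that holds Rax and Ccbe1 was examined for the Rad21 signal in mouse RAG cells. It was defined by position alone, as every probe other than controls with its midpoint between 65.5 and 66.5 Mb on chromosome 18 (mm9). This gave 9659 of the 170567 probes on the arrays, of which 9657 were used after spots marked as outliers had been left out. Probe length and median probe spacing were both 60 bp. The segment was cut into fixed 1 kb windows, and a window was kept if it held 3 or more probes, which left 882 of 1000 possible windows, out of 14947 over the 11 segments tiled.

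The series holds 1 group of 2 arrays, replicates 1 and 2, each made from its own T75 flask of RAG cells. RAG is an established line from a renal adenocarcinoma of the mouse, and serves in the study as its Pax6-OFF cells. Chromatin was fixed with formaldehyde and precipitated with an antibody against Rad21, and the ChIP and input DNA were amplified, reamplified and hybridised together on each array. There was no other cell line, no untreated group and no dye swap, and genomic DNA gives no expression markers against which the line could be checked.

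Rad21 is a subunit of cohesin, the ring-shaped complex that holds chromatin fibres together and extrudes loops. Extruding cohesin is known to halt at sites bound by CTCF, so that peaks of Rad21 often lie at CTCF motifs and mark the anchors of loops. The strand of a motif gives an anchor its direction, and in the study such sites place the anchors along a polymer of 1 kb beads.

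All values are log2 ratios of Cy3 over Cy5, centred on the median of each array. This direction opposes the labels, which put input DNA in Cy3 and ChIP DNA in Cy5. It is the sign that the deposited value table carries, and the scanner files do not state which DNA either dye held. Sides are therefore named by dye. In the segment the median spot signal was 1347 in Cy3 and 3529 in Cy5 on replicate 1, and 1733 and 4331 on replicate 2. These are signals before background subtraction and scaling per dye, whereas the ratios use the processed signals. Between 95.7% and 99.3% of spots were well above background, and 3 to 4 spots in Cy3 and 74 to 119 in Cy5 were saturated.

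The segment held a set of tall sites that were higher in Cy3 on both arrays, and few and weak windows on the Cy5 side. Of the 882 windows, 63 (7.14%) were higher in Cy3 at an adjusted p under 0.05 (limma, Benjamini-Hochberg over all 14947 windows), beside 3.69% of windows over the whole array. Only 11 windows (1.25%) were higher in Cy5, beside 5.41% over the whole array. The median ratio of the 63 windows was 0.75, against 0.73 for all such windows on the array, and their sizes ran from 0.40 to 1.87. A ratio of at least 1 log2 unit in either direction was reached by 21 windows on the Cy3 side and by 0 on the Cy5 side, where the sizes ran from 0.39 to 0.74. At an unadjusted p under 0.05 there were 123 windows on the Cy3 side and 58 on the Cy5 side.

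Both arrays were above 0 in all 63 windows and below 0 in all 11, which the test on the mean of these same arrays largely fixes. The weakest window called on the Cy3 side had a ratio of 0.40 (limma adjusted p = 0.0464), and the next one, at 0.39, missed the threshold (adjusted p = 0.0507). Among the 11 tiled segments the share of windows higher in Cy3 was the second highest, within a range of 2.33% to 10.4%, and the share higher in Cy5 was the ninth. The order of segments was not tested. GC content differed between them and moved with the ratio. The median GC of windows was 44.6% here and 42.3% over the rest of the array, and in the segment it was 47.4% in windows higher in Cy3, 44.6% in those not called and 37.1% in those higher in Cy5. Across the 882 windows Pearson r between ratio and GC content was 0.34 and Spearman rho 0.49, as a description of windows on shared arrays. After each array had been corrected for GC content, 64 windows were called on the Cy3 side and 2 on the Cy5 side. The shares over the whole array were not counted after that correction. The comparison of the segment with the array therefore holds for uncorrected values alone.

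**Figure D1:**
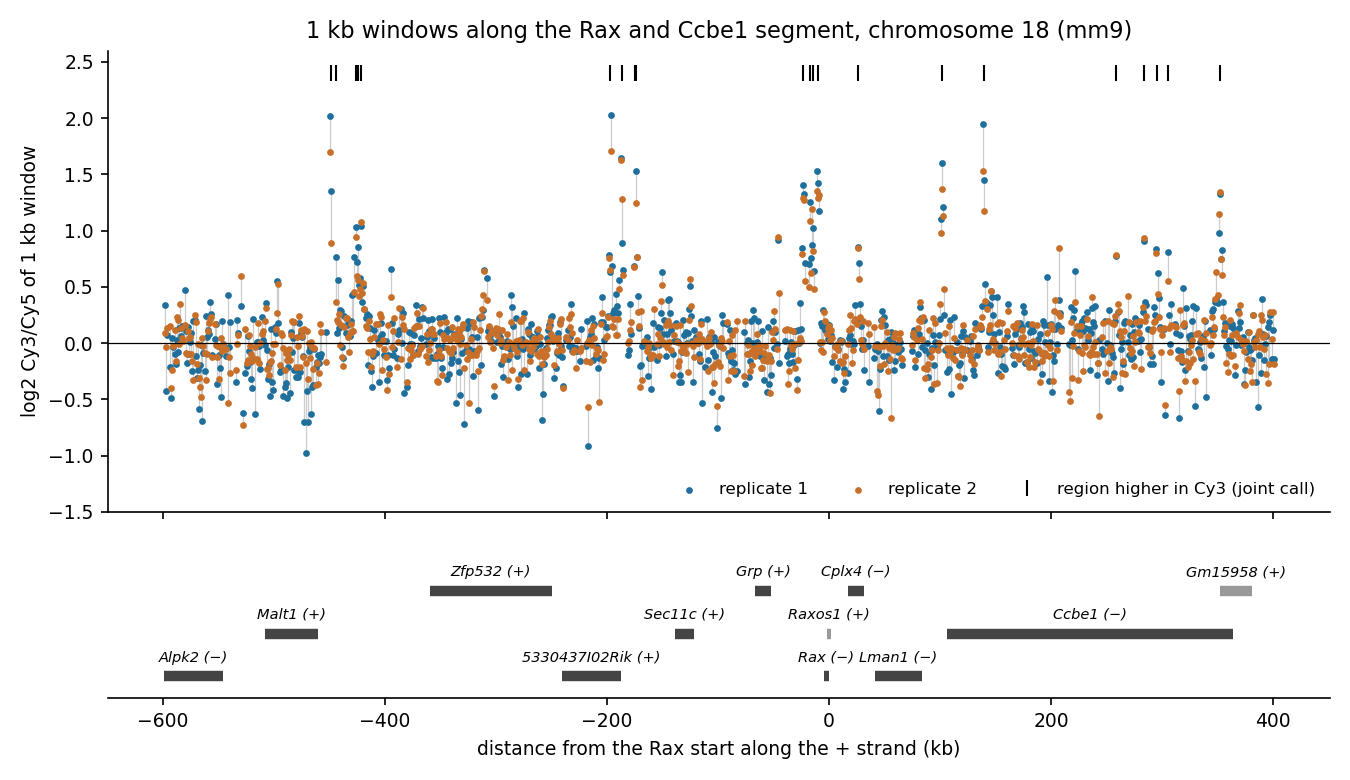
Log2 Cy3/Cy5 of every 1 kb window (vertical axis) against distance from the Rax start along the + strand in kb (horizontal axis), with replicate 1 in blue, replicate 2 in orange, a line joining the arrays, the 21 regions higher in Cy3 as black marks at their centres and gene bodies with their strand underneath. The tall windows stand in a few clusters at the same positions on both arrays, up to 2.03 on replicate 1, and the stretches between them lie around 0.

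The only error measured is the difference between the arrays, and limma pooled it in part over all 14947 windows (6.48 prior degrees of freedom). Standard errors, p-values and intervals therefore do not measure a window's own spread alone. At the Rax start the SD of the arrays was 0.01 and the standard error 0.10. Across the 9657 probes Pearson r between the arrays was 0.55 and Spearman rho 0.43, beside 0.49 and 0.43 over the rest of the array. Averaged in windows, r rose to 0.76 and rho to 0.52, and the median difference between the arrays in a window was 0.13 log2 units. Outside the regions described next, r across 9284 probes was 0.38. Probes and windows are not independent replicates, so no p-value is attached.

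**Figure D2:**
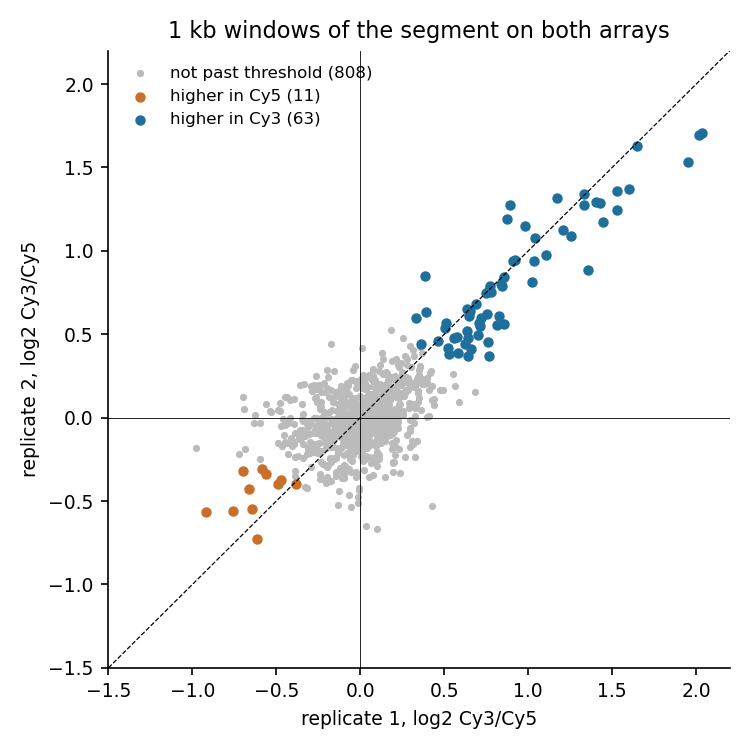
Log2 Cy3/Cy5 of each of the 882 windows on replicate 1 (horizontal axis) and replicate 2 (vertical axis), with 63 windows higher in Cy3 in blue, 11 higher in Cy5 in orange, 808 not past the threshold in grey and a dashed line of equality. The blue points lie along the line up to 2.03 and 1.71, while the orange points reach no further than -0.92 and -0.73.

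Regions were then called from the running median of both arrays, taken over probes up to 400 bp away, with at least 3 probe positions above a threshold of 0.64 that came from the values on the Cy5 side of the whole array. The segment had 21 regions higher in Cy3 of 209 on the array, or 21.0 per Mb, the second highest density of the 11 segments (range 8.0 to 42.5 per Mb). They covered 28708 bp (2.87% of the segment). Their median length was 1473 bp, beside 1116 bp for the 188 regions elsewhere, and the median of their tallest running medians was 1.30 beside 1.29. Called on each array alone, 17 of the 21 were found on both, beside 154 of 209 over the whole array. After GC correction there were 35 regions, and all 21 were overlapped again, but the regions of other segments were not counted after it. The regions are numbered here in order along the chromosome.

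To read each region on an array that had not chosen it, regions were also called on 1 array and their summits read on the other. The 19 summits of replicate 1 had running medians of 0.62 to 2.09 on replicate 2, with a median of 1.30, and all 19 exceeded 0.50, the 99th percentile of positions outside regions there. The 22 summits of replicate 2 had values of 0.27 to 2.51 on replicate 1, with a median of 1.21, and 19 of the 22 exceeded the 99th percentile of 0.56. All of these summits were above 0 on the other array. The percentiles leave out the positions in regions, which lowers them, so the counts that exceed them are a description.

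**Figure D3:**
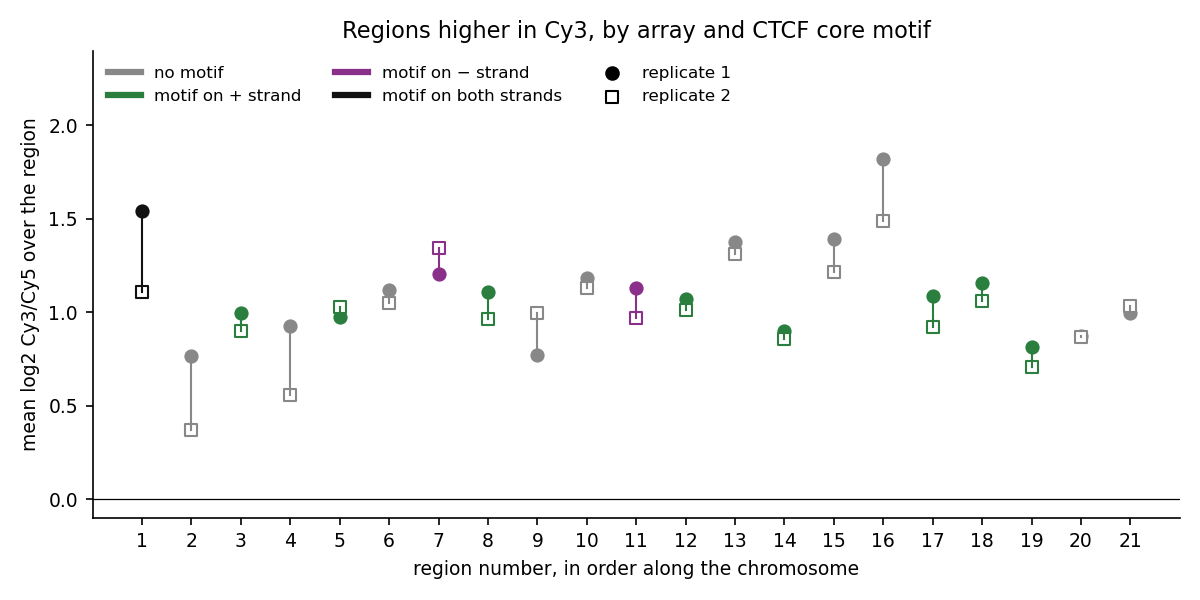
Mean log2 Cy3/Cy5 of the probes in each of the 21 regions (vertical axis), numbered along the chromosome (horizontal axis), with filled circles for replicate 1, open squares for replicate 2 and colour for the strand of a CTCF core motif within 500 bp of the summit. Every region is above 0 on both arrays, which the call on these same arrays together largely fixes. Region 16 is the tallest on both, and regions 1, 2, 4 and 16 show the widest gaps between the arrays.

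By place, 13 of the 21 summits were intergenic (61.9%), beside 50.5% of the regions elsewhere, and 8 were intronic. None lay in a coding exon or UTR. Among windows, 12.6% of the 302 intergenic ones were higher in Cy3 and 4.28% of the 538 intronic ones, beside 3.36% of 7500 and 3.45% of 6033 over the rest of the array. These shares were not tested against each other. Of the 63 windows, 34 lay in 3 intervals between genes. The interval from Malt1 to Zfp532 held 13 of its 87 windows and 5 regions, that from 5330437I02Rik to Sec11c 7 of 39 windows and 3 regions, and that from Grp to Rax 14 of 40 windows and 4 regions. The interval from Sec11c to Grp held no window higher in Cy3 among its 44 and 1 higher in Cy5.

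Rax encodes the retina and anterior neural fold homeobox protein, a transcription factor needed to form the eye. The gene (ENSMUSG00000024518) runs from 66094293 to 66098743 on the - strand. The window with its start had a ratio of 0.16 on replicate 1 and 0.15 on replicate 2, a mean of 0.16 ± 0.01 (SD, n = 2). This did not pass the threshold (limma adjusted p = 0.34), with a 95% interval of -0.07 to 0.38. The 5 windows of the gene body averaged 0.15 ± 0.03 (SD, n = 2), and 0 of them were called. The start of Raxos1, a long non-coding RNA on the opposite strand, had a mean of 0.08 ± 0.07.

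The tall sites near Rax lay past its 3′ end, in the interval that reaches to Grp. Regions 10, 11, 12 and 13 stood 23.3, 17.0, 14.5 and 10.3 kb from the Rax start, and all 4 were called on each array alone. Region 13 (chr18:66087731-66089436), the nearest to Rax, had a mean of 1.38 on replicate 1 and 1.31 on replicate 2. Region 10 (chr18:66074432-66076230) had 1.19 and 1.13. Region 11 (chr18:66081034-66082506) had 1.13 and 0.97. By these means the 3 regions were about as high on one array as on the other, with gaps of at most 0.16 log2 units. At the summit of region 11 the arrays were further apart, with running medians of 1.63 on replicate 1 and 1.16 on replicate 2. Those of regions 13 and 10 were 1.82 and 1.66 on replicate 1, and 1.7 and 1.53 on replicate 2. Region 12 (chr18:66083716-66084798) was at 1.07 and 1.01. The windows that start at 66087000 and 66088000 had means of 1.44 ± 0.12 and 1.36 ± 0.10 (SD, n = 2; limma adjusted p = 0.000312 and 0.00034). Those that start at 66075000 and 66076000 had 1.35 ± 0.08 and 1.30 ± 0.04 (adjusted p = 0.00034 and 0.000367). The 40 windows of the interval averaged 0.35, the highest mean of the 10 intervals between genes or at the segment end. On the other side, the interval from Rax to Cplx4 had no window called among 13 and a mean of -0.10.

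Cplx4 encodes a complexin, a regulator of vesicle release at the ribbon synapses of the retina. Region 14 lay in its intron (chr18:66123983-66125475), 5.46 kb inside the gene from its start. It had a mean of 0.90 on replicate 1 and 0.86 on replicate 2. The window of the Cplx4 start was at 0.03 and 0.20, with a mean of 0.12 ± 0.12 (SD, n = 2; limma adjusted p = 0.511), so the intronic site stood above a start that was not called. Grp, the gene of gastrin-releasing peptide, had 0 called windows among the 14 of its body, whose mean was -0.11 ± 0.02. Its start window was at -0.07 ± 0.06 (limma adjusted p = 0.707).

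Ccbe1 encodes a secreted protein with collagen and calcium-binding EGF domains that is needed for the growth of lymphatic vessels. The gene (ENSMUSG00000046318) is the longest here, from 66204956 to 66462393 on the - strand. Its body held 6 regions, and 16 of its 229 windows were higher in Cy3 and 3 higher in Cy5. Over the segment 7.14% and 1.25% of windows were called on these sides, with 21.0 regions per Mb, so the counts do not set Ccbe1 apart. The mean over the body was 0.08 ± 0.03 (SD, n = 2). Its start window, with 3 probes, was at 0.14 on replicate 1 and -0.10 on replicate 2, so the arrays differed in sign there (mean 0.02, limma adjusted p = 0.94).

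The tallest region of the segment, region 16 (chr18:66237190-66238805), lay in a Ccbe1 intron. It had a mean of 1.82 on replicate 1 and 1.49 on replicate 2, and its running median reached 2.35 at the summit. Its windows at 66237000 and 66238000 had means of 1.74 ± 0.30 and 1.31 ± 0.19 (SD, n = 2; limma adjusted p = 0.000312 and 0.000529). The array gap of 0.33 in this region was among the widest, and the lower of both values was still above every other region on replicate 2. Region 15 (chr18:66199137-66201565) lay between Ccbe1 and Lman1, past the 3′ end of Ccbe1, with a mean of 1.39 and 1.22. The window at 66200000 within it had a mean of 1.49 ± 0.16 (limma adjusted p = 0.000312).

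The other 5 regions of Ccbe1 were lower, and some were found on 1 array or neither when each was called alone. Region 18 (chr18:66382222-66382701) had a mean of 1.16 on replicate 1 and 1.06 on replicate 2. Region 17 (chr18:66357278-66357752) had 1.09 and 0.92, and was called alone on replicate 2 but not on replicate 1. Region 19 (chr18:66392976-66394252) had 0.81 and 0.71 and was called on both. Region 20 (chr18:66403329-66403743), with 4 probes, had 0.88 and 0.87 but was called on neither array alone. The threshold was 0.93 on replicate 1 alone and 0.66 on replicate 2 alone, and a running median on 1 array also needed at least 5 probes within reach.

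Region 21 (chr18:66448811-66452474) was the longest, at 3664 bp and 59 probes, with a mean of 1.00 on replicate 1 and 1.03 on replicate 2. It lay in a Ccbe1 intron 11.7 kb from the Ccbe1 start and over the start of Gm15958, a long non-coding RNA transcribed from the opposite strand. The summit was 284 bp from that start. The window that holds the Gm15958 start was at 1.33 and 1.34, with a mean of 1.34 ± 0.01 (SD, n = 2; limma adjusted p = 0.000338). Among the windows here that hold the start of an annotated gene, coding or not, it was the only one called.

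Lman1 encodes a cargo receptor that carries clotting factors from the endoplasmic reticulum to the Golgi. None of the 34 windows of its body was called, and the body averaged -0.03 ± 0.02 (SD, n = 2). Its start window was at 0.00 ± 0.05.

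Toward the other end of the segment, Malt1 encodes a paracaspase of NF-κB signalling in lymphocytes and Zfp532 a zinc finger protein. Malt1 had 0 windows higher in Cy3 and 1 higher in Cy5 among 46, and a body mean of -0.12 ± 0.12 (SD, n = 2). The space between both genes held region 1 (chr18:65649610-65651003), with a mean of 1.54 on replicate 1 and 1.11 on replicate 2. The gap of 0.43 between the arrays was the widest of the 21 regions, and both values stayed above 1. Its window at 65649000 had the second highest ratio of the segment, 1.86 ± 0.23 (limma adjusted p = 0.000202), from 5 probes.

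The next sites in that interval were lower. Region 3 (chr18:65671977-65673489) had a mean of 1.00 on replicate 1 and 0.90 on replicate 2, and region 5 (chr18:65676631-65678176) had 0.97 and 1.03. Region 2 (chr18:65654389-65654868), with 5 probes, was at 0.77 and 0.37, with a mean of 0.57 ± 0.28 that was the lowest of the 21. With the deposited values this mean was 0.89, above that of region 4. Region 4, which had the lowest peak of the 21, was called alone on replicate 1 but not on replicate 2. Past region 5, no region was found for 222 kb, the longest such stretch, which spans all of Zfp532. The 108 windows of the Zfp532 body averaged 0.00 ± 0.02 (SD, n = 2), with 2 higher in Cy3 and 1 higher in Cy5. The other stretches over 70 kb without a region were 150 kb, counted from the segment border, and 149, 118 and 73.7 kb long.

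5330437I02Rik, an annotated protein-coding gene, and Sec11c, a catalytic subunit of the signal peptidase complex, flank the next cluster. Region 6 (chr18:65900404-65902494) lay in a 5330437I02Rik intron, with a mean of 1.12 on replicate 1 and 1.05 on replicate 2. Its window at 65902000 had the highest ratio of the segment, 2.03 on replicate 1 and 1.71 on replicate 2 (mean 1.87 ± 0.23, limma adjusted p = 0.000202). The summit lay at the edge of the region, where the probes of the array also thin out, with 6 probes in that window.

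Region 7 (chr18:65911445-65913228) was called just past the 3′ end of 5330437I02Rik, which is at 65911255. Its summit lay at that edge of the region, with 9 probes in the window at 65911000, so where the signal began was not resolved. It had a mean of 1.20 on replicate 1 and 1.34 on replicate 2. The window at 65911000 was at 1.65 and 1.63, nearly equal on both arrays (limma adjusted p = 0.000197). Region 8 (chr18:65923381-65924491) had a mean of 1.11 and 0.96, and its window at 65924000 a mean of 1.39 ± 0.20 (SD, n = 2; limma adjusted p = 0.000496). The summit of region 8 lay at its edge as well. Region 9 (chr18:65925305-65925484) was the shortest, at 180 bp and 3 probes, with 0.77 and 1.00, and was called on neither array alone. The Sec11c body had 1 window higher in Cy3 among 17 and a mean of 0.03 ± 0.01.

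No coding start was called, a count close to the share elsewhere. None of the 10 windows that hold the start of a coding gene passed in either direction (limma), and 0 of the 10 had an unadjusted p under 0.05. Their means ran from -0.07 at Grp to 0.17 at Sec11c, with standard errors of 0.10 to 0.11, and the lowest adjusted p was 0.307. The 95% intervals together spanned -0.30 to 0.40, so a ratio of the size seen in the tall regions lay outside all of them. Over the rest of the array, 10 of 107 such windows were higher in Cy3 and 0 higher in Cy5, so that 0 of 10 here does not set this segment apart. Alpk2, an alpha-kinase gene cut by the segment border, had a start window of -0.01 ± 0.00 and 2 windows higher in Cy5 among the 51 of its body. No region summit lay within 2 kb of a coding start, beside 18 of the 188 regions elsewhere (9.57%), and the median distance from summit to nearest coding start was 48.7 kb, beside 31.9 kb.

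**Figure D4:**
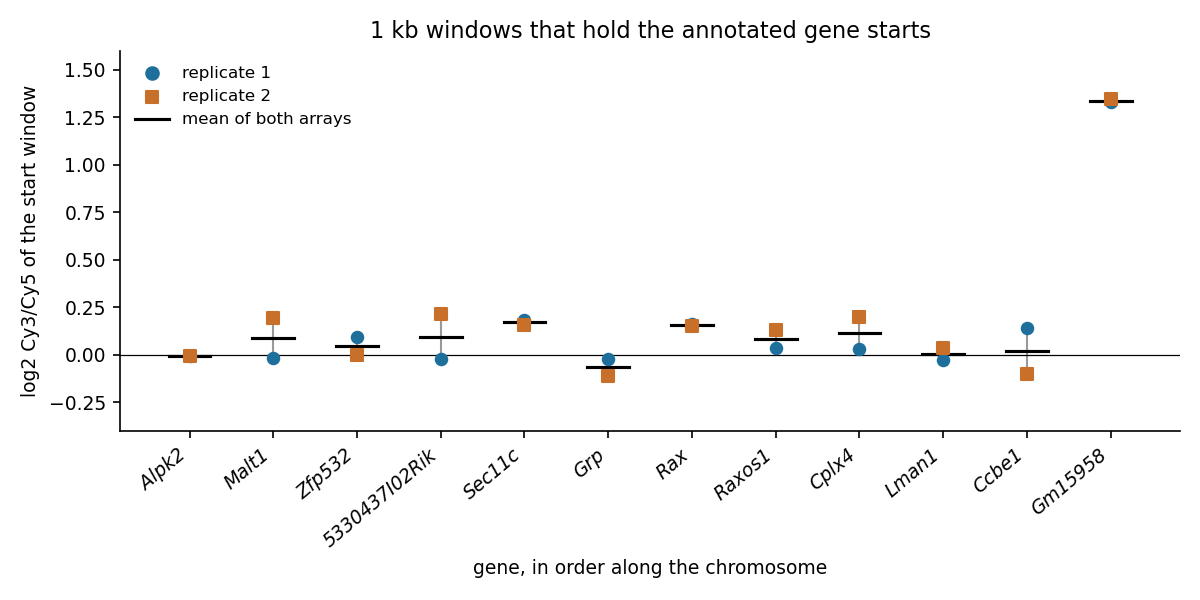
Log2 Cy3/Cy5 of the 1 kb window that holds each annotated gene start (vertical axis, genes in chromosome order), with replicate 1 as blue circles, replicate 2 as orange squares and the mean of both as a black bar. All coding starts and Raxos1 lie between -0.11 and 0.22 on either array, while the start of the non-coding Gm15958 lies at 1.33 and 1.34.

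The CTCF core motif was then searched on both strands within 500 bp of each summit, allowing 1 mismatch. It was found at 11 of the 21 regions (52.4%, exact Clopper-Pearson 95% interval 29.8% to 74.3%, for counting error only) and at 10 of the 17 called on both arrays. Over the 188 regions elsewhere it was found at 122 (64.9%), a value within that interval. As the background, 7.72% of all 1 kb windows of the array held the motif, and 93 of the 882 windows here. A match describes letters in the reference sequence, not a bound site, and a region without one may hold a motif that the search does not cover.

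The strand of the motif varied along the segment. It lay on the + strand at 9 regions and on the - strand at 3, where region 1 counts in both. Regions 3, 5, 8, 12, 14, 17, 18 and 19 had it on the + strand alone, and regions 7 and 11 on the - strand alone. In the interval from Grp to Rax, region 11 carried it on the - strand and region 12, which lies nearer to Rax, on the + strand, while regions 10 and 13 on either side had none. In Ccbe1 the 3 regions with a motif all had it on the + strand. Tall regions were found with and without the motif. Of the 5 with the highest running medians, regions 16, 6 and 15, at 2.35, 2.25 and 1.90, had none within 500 bp. Among them, regions 1 and 7, at 2.04 and 1.85, had one with 0 mismatches, at -18 and 469 bp from the summit. The matches of regions 3, 5 and 14 also lay near the border of the search, at -465, -409 and 487 bp. In the other regions with a motif the best match lay at -288 to 194 bp.

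Most windows with a motif, 70 of 93, were not called in either direction. Of the 93, 20 were higher in Cy3, beside 187 of 1154 windows with a motif over the whole array and 63 of all 882 windows here. Those 20 were 31.7% of the 63 windows called, beside 33.9% over the whole array and 8.66% of the windows not called here. On the Cy5 side, 3 of the 11 windows held it (27.3%), the windows at 65881000 and 65571000 among them, beside 4.08% of such windows over the whole array. The 17 windows with a motif that overlapped a region had a median ratio of 0.93, and the 76 outside regions had a median of 0.01. The first value follows from how regions were chosen and is given as a description.

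The Cy5 side was examined in the same way, because the labels place the ChIP DNA there. No region higher in Cy5 was found in the segment at the threshold of -1.11, beside 4 over the whole array. That threshold comes from the Cy3 side, so a common one of 0.64 was also used. It gave 2 regions here and 179 over the whole array, and neither of the 2 was called on either array alone. A running median on 1 array needed at least 5 probes within reach, which neither summit had. The missing calls therefore do not show how far the arrays agreed there. Of the 11 windows, 9 were intronic and 2 intergenic, and 0 overlapped a region higher in Cy3.

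The lowest window, at 65881000 in a 5330437I02Rik intron, was at -0.92 on replicate 1 and -0.57 on replicate 2 (limma adjusted p = 0.0108), and 32.7% of its bases were G or C. The window at 65571000, between Alpk2 and Malt1, was at -0.62 and -0.73 (adjusted p = 0.00834), with 30.0% GC. Both lay over the regions of the common threshold, but neither call held throughout. The first was at -0.30 among spots well above background (adjusted p = 0.18), and the second at -0.32 with loess (adjusted p = 0.12) and -0.40 with GC correction (adjusted p = 0.0898). The window at 65997000, between Sec11c and Grp, was at -0.76 and -0.56 (adjusted p = 0.0109). Without saturated probes its mean was -0.26 and the call was lost (adjusted p = 0.162). The windows at 66401000 and 66413000 in Ccbe1 had means of -0.60 ± 0.07 and -0.55 ± 0.17, and that at 65629000 in Malt1 -0.51 ± 0.27 (SD, n = 2). With GC correction these 3 were at -0.26, -0.40 and -0.37 and lost the call (adjusted p = 0.215, 0.0656 and 0.115). With a variance prior that was both trended and robust, 68 windows were higher in Cy3 and 0 higher in Cy5, with the ratios themselves unchanged.

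**Figure D5:**
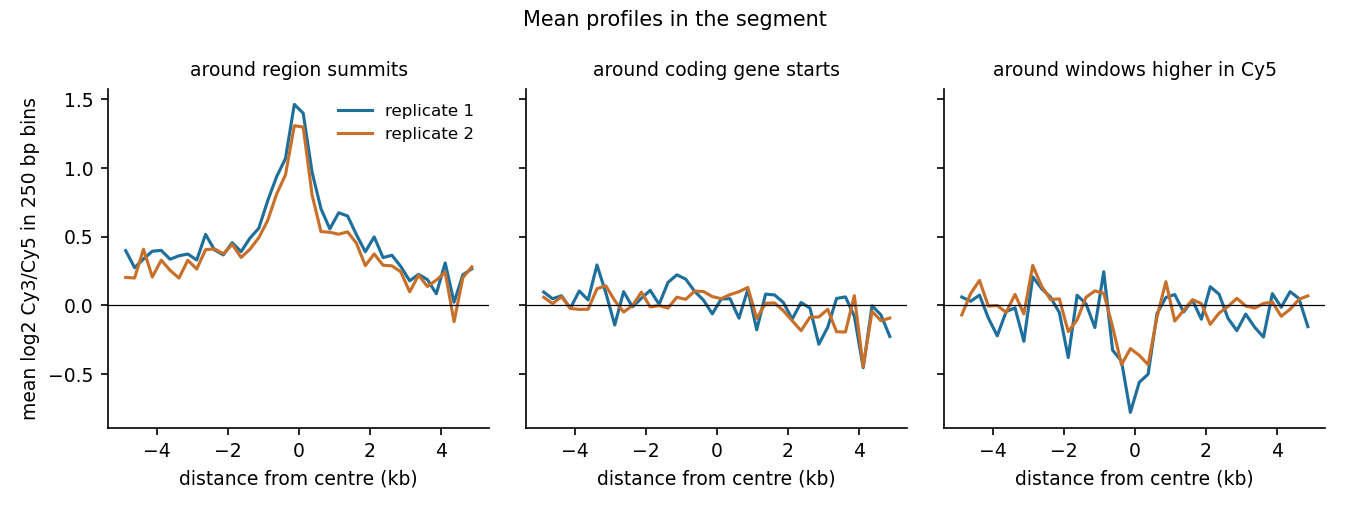
Mean log2 Cy3/Cy5 in bins of 250 bp (vertical axis) within 5 kb (horizontal axis) of the 21 region summits, the 10 coding gene starts and the 11 windows higher in Cy5, with replicate 1 in blue and replicate 2 in orange. The summits peak at 1.46 and 1.31 and fall to 0.50 and 0.37 in the bin at 2125 bp, with flanks that stay raised further out. The coding starts show no peak, and the Cy5 windows dip to -0.78 on replicate 1 but only to -0.31 in the same bin on replicate 2.

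Around the summits the signal fell on both sides on each array, as the mean profiles show, but it was not at 0 in the outermost bins. Replicates 1 and 2 were there at 0.40 and 0.20 (-4875 bp) and at 0.27 and 0.28 (4875 bp). In the bin just before the summit, the mean was 1.46 on replicate 1 and 1.31 on replicate 2. The same bin before the coding starts was at -0.06 and 0.06. The summits and the Cy5 windows were chosen on these values, so their profiles describe shape and size only.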

How the data were processed

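The authors deposited spot intensities from Feature Extraction 10.5.1.1, background-subtracted and scaled per dye, and a table of log2 values that the methods credit to Ringo with no parameters given. The deposited log2 columns, with medians of -0.00664 and -0.00592, matched the Cy3/Cy5 running median (Pearson r 0.964 and 0.962) once probes were ordered by number as text and the first 3 left out. Their exact smoothing stays unknown. They served as an alternative. Probe positions are in mm9. The sequence (NCBIM37) and annotation (GENCODE M1) are of that build.

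The log2 ratio of processed intensities was centred on the median of each array, without loess. limma 3.58.1 (R 4.3.3) tested each window mean against 0 over 14947 windows (lmFit, eBayes, two-sided, Benjamini-Hochberg). The 2 arrays are biological replicates per the labels, and their number limits the precision. An exact permutation test of 2 arrays cannot pass 0.05. Regions were called with a Ringo-type procedure written anew: running median within 400 bp (at least 5 values), a threshold from the 0.99 quantile of values reflected about the mode of the whole array, at least 3 positions, and joining under 600 bp. Python 3.11.15, numpy 2.4.6, pandas 2.3.3, scipy 1.17.1 and matplotlib 3.10.9 were used.

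The members, lists and rules were chosen with earlier results of these data known. Named were all coding genes, the 12 highest and 6 lowest called windows, and the 20 tallest regions. Region 4, Gm15958 and Raxos1 fall outside that rule and were added after their values were seen. No sequence of this chromosome is printed.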

Additional observations from a re-analysis of the deposited data

How the results depend on the processing

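The Cy3 count stayed within 46 to 89 windows under the alternatives run. The 12 named windows kept their call under the 9 alternatives that left the windows as they were. They were not followed under other window sizes, positions or probe minimums, and single arrays gave them a value with no test. The Cy5 count of 11 did not hold: 4 with loess, 27 with centring on the mode, 5 with spots well above background alone, 2 with GC correction, 3 with the deposited values, 0 with a trended robust prior, 26 in windows of 500 bp, and 5 in windows moved by 500 bp, an alternative chosen after seeing the data. The share of called windows higher in Cy3, 85.1%, was 69.3% with mode centring, 97.0% with GC correction and 100.0% with the trended prior. On single arrays, windows at or past 0.5 log2 units numbered 50 to 62 on the Cy3 side and 10 to 20 on the Cy5 side. By the mean of both arrays they numbered 57 and 7. The 20 on the Cy5 side came without replicate 2. Named windows lost the call 20 times, each on the Cy5 side.

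Regions higher in Cy3 numbered 17 to 30, and 35 with GC correction. Single arrays gave 19 to 22. The 21 regions were overlapped again in 17 or more cases. Regions higher in Cy5 numbered 1 at the 0.98 quantile and 2 at the common threshold, and 0 to 1 on single arrays. Probe agreement was 0.67 in the deposited values, which are smoothed. The motif share was 76.2% within 1500 bp, also chosen after seeing the data, beside 21.5% of 3 kb windows, and 45.5% to 63.2% on single arrays.

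The starts changed sign near 0, with no call gained: Alpk2 was at 0.005 (deposited values), 0.14 (500 bp windows and moved windows) and 0.027 (2 kb windows). Malt1 was at -0.048 (500 bp windows) and from -0.015 to 0.194 on single arrays, Zfp532 at -0.035 (mode centring) and from -0.003 to 0.093 on single arrays, 5330437I02Rik from -0.024 to 0.215 on single arrays and Cplx4 at -0.071 (moved windows). Lman1 was at -0.036 (normexp), -0.057 (loess), -0.078 (mode centring), -0.016 (well above background), -0.039 (GC correction) and from -0.03 to 0.035 on single arrays. Ccbe1 was at -0.011 (normexp), -0.063 (mode centring), -0.001 (well above background), -0.047 (GC correction) and from -0.104 to 0.138 on single arrays. The cause was not tested.

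No paired analysis was possible because the arrays form 1 group. With no dye swap, dye and DNA cannot be told apart.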
